A study of Mus musculus with 6 samples.

Results

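The respiratory chain subunit genes are the protein-coding genes whose symbols name a subunit of complexes I to V of the inner mitochondrial membrane. They were chosen by symbol alone: mt-Nd, mt-Co, mt-Atp and mt-Cyt genes of the mitochondrial chromosome, and the nuclear genes Nduf (letters a, b, c, s or v followed by a number), Sdha to Sdhd, Uqcr, Cox4 to Cox8 and Atp5. This rule selected 96 of the 25700 genes measured, 13 mitochondrially encoded and 83 nuclear encoded. Complex I held 44 of them, complex II 4, complex III 9, complex IV 20 and complex V 19. The rule leaves out Ndufab1 and Cyc1, whose symbols have another form. It takes in Ndufa4, now known as a complex IV subunit, Atp5s, a factor related to ATP synthase that is no core subunit, and Cox7a2l, a factor that joins complexes III and IV.

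RNA was sequenced from the proximal incisor, the growing end of the mouse tooth, in 6 C57BL/6 mice aged 5 weeks. Control mice (n = 3) had the genotype Runx2fl/fl and no Cre, and cKO mice (n = 3) had Gli1-CreERT2;Runx2fl/fl, so that both groups carried the floxed Runx2 alleles. The same tamoxifen treatment is given in the labels for both groups, 1.5 mg per 10 g body weight on 3 days at 1 month of age, with collection 1 week after induction. Tamoxifen activates the CreERT2 recombinase in cells that express Gli1, so Runx2 can be lost only in part of the cells, and no comparison separates the loss of Runx2 from what the Cre allele or its activation does by itself. Whether replicates were raised together is not given, and p-values measure the spread between these mice.

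Electrons from NADH enter the chain at complex I and those from succinate at complex II. Ubiquinone carries them to complex III, cytochrome c takes them on to complex IV, and there they reduce oxygen. Complexes I, III and IV pump protons, and complex V uses the proton gradient to make ATP. Complexes I, III, IV and V combine subunits translated inside the mitochondrion with subunits imported from the cytosol, while all subunits of complex II are nuclear encoded. The mitochondrial genes are transcribed together from both strands of the circular chromosome, and each nuclear gene has its own promoter, for which the factors NRF1, GABP of the ETS family and YY1 are known regulators.

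The nuclear genes were first compared in their promoters, since they share no chromosome region. Promoters of 300 bases (250 before to 50 after the start, RefSeq, GRCm38.p6) were found for 66 of the 83 nuclear genes, 71 promoters in all. Short cores were searched for on both strands: TGCGCA, the core of the NRF1 site, which reads the same on both strands, CCGGAAG of ETS factors, and AAGATGG of YY1. The NRF1 core was present in 25.4% of the members' promoters, against 7.76% of all 32851 promoters and 11.99% of the 16260 promoters of tested genes. The ETS core was present in 22.5%, against 8.86% and 14.8%, and the YY1 core in 14.1%, against 6.34% and 6.36%. At least 1 of the 3 cores was present in 50.7% of the members' promoters, 20.4% of all promoters and 28.9% of those of tested genes. The median GC content was 57.3% for the members, 52.7% for all promoters and 60.0% for tested genes. A match describes letters only and is no evidence of binding.

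The promoters printed next show these cores in genes described further on. Each line gives the 120 bases before the start, 5′ to 3′ on the strand of the gene, in lower case with NRF1 and ETS cores in capitals. TGCGCA is the NRF1 core, and CTTCCGG is the ETS core read from the opposite strand. Cox6a1 and Sdhd carry both, Sdha carries 2 NRF1 cores, Cox6b1 carries the ETS core, and Cox6b2, the testis-type counterpart of Cox6b1, has no match in this window.
Cox6a1 (chr5:115348959-115349078, minus strand): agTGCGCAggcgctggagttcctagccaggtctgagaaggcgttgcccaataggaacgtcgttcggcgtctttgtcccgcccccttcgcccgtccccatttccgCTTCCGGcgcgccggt
Sdhd (chr9:50603850-50603969, minus strand): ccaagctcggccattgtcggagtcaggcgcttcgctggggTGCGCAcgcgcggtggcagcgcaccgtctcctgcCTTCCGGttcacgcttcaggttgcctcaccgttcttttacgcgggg
Sdha (chr13:74350241-74350360, minus strand): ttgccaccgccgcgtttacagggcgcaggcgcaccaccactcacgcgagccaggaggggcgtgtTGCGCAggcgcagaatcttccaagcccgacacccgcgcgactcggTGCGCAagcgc
Cox6b1 (chr7:30626115-30626234, minus strand): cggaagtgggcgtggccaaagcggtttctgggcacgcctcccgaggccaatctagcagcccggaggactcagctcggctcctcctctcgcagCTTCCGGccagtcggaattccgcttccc
Cox6b2 (chr7:4753095-4753214, minus strand): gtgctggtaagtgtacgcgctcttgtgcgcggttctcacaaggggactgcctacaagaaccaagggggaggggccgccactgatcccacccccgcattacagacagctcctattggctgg

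The mitochondrial genes are packed so tightly that some share bases, which bears on how reads can be assigned. The last 43 bases of mt-Atp8 (chrM:7766-7969) are the first 43 of mt-Atp6 (chrM:7927-8607), both complex V subunits of the membrane part. In the lines that follow, the shared bases are in capitals, with 25 further bases of each gene in lower case.
end of mt-Atp8 (chrM:7902-7969, plus strand): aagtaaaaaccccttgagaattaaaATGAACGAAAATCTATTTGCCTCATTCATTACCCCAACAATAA
start of mt-Atp6 (chrM:7927-7994, plus strand): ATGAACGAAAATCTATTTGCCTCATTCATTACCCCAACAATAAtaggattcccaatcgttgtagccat
The genes mt-Nd4l and mt-Nd4 share 7 bases, mt-Atp6 and mt-Co3 share 1, and mt-Nd5 and mt-Nd6, which lie on opposite strands, share 14. Strand handling in the counting is not given in the sources used here, so reads of mt-Nd5 and mt-Nd6 over those 14 bases cannot be told apart.

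Copies of the mitochondrial genes in the nuclear genome bear on the counts as well. The pseudogene Gm10925 matches 678 of the 681 bases of mt-Atp6 without a difference and held 99.9% as many counts. Gm28661 (681 bases, 100% identity) stood at 100.1% to 100.4% of mt-Co2 and Gm28437 (783 bases) at 100% of mt-Co3. Gm28438 (345 bases, 99.7% identity) reached 130% to 139% of mt-Nd3 and Gm10222 (294 bases) 85.8% to 99.0% of mt-Nd4l. Gm29216 covers 483 of the 1545 bases of mt-Co1 and held 8.47% to 10.5% as many counts. Levels of mt-Atp6, mt-Co2, mt-Co3, mt-Nd3 and mt-Nd4l therefore depend on whether a shared read was divided between the genes or counted in each. The rule is not given, and these near-equal counts do not settle it. Gm28439 matches 876 of the 1378 bases of mt-Nd4 without a difference, yet held 0.046% as many counts. Counting each shared read in full in both genes would give far more. From 45.6% to 48.0% of the estimated counts in a library were whole, and divided reads leave such fractions. Among the nuclear genes, 6 had a copy with at least 10% of their counts. The largest share was that of Ndufb4, a small membrane subunit of complex I, whose copy Ndufb4c (390 bases, 100% identity) held 581% to 663% of its counts, and Ndufs5 with BC002163 at 82.1% to 92.9% came next. The others were Atp5l, Ndufa12, Atp5g2 and Cox7a2l, whose copy Gm6969 varied from 1.86% to 22.5% of its counts between libraries.

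Per length of exon, every mitochondrially encoded gene stood above every tested nuclear one. The scale here is counts-per-million (CPM) per kilobase of exon, with exon lengths from GENCODE M21 on the same assembly, as the mean of all 6 libraries. The median over the 13 mitochondrial genes was 5891 CPM per kb and that over the 81 tested nuclear genes 38.1, a ratio of 155. The highest was mt-Co1, the catalytic subunit of complex IV, at 12679 CPM per kb, followed by mt-Cytb, the cytochrome b of complex III, at 9015. The lowest mitochondrial gene was mt-Nd3 of complex I at 976, and the highest nuclear gene, Cox8a of complex IV, measured 210. The 7 mitochondrial complex I genes (median 3007) lay between 976 and 5891, all below the 6 others, of which mt-Co3 was lowest at 5937. The order among the mitochondrial genes holds for the counts as deposited. If shared reads were divided with the copies, mt-Atp6, mt-Co2, mt-Co3, mt-Nd3 and mt-Nd4l stand too low in it, and the places of mt-Co1, mt-Cytb and mt-Nd3 could change.

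Nuclear genes of complex I had the lowest median level. It was 28.0 CPM per kb for complex I (37 genes), 47.7 for complex II (4), 63.6 for complex III (8), 65.7 for complex IV (15) and 42.2 for complex V (17). Within complexes I, III, IV and V the levels spread more widely than these medians, and within complex II about as widely. In complex I it ran from 3.53 (Ndufb4, with the copy described above) to 103 (Ndufa1), in complex II from 29.1 (Sdhc) to 72.1 (Sdhd) and in complex III from 26.3 (Uqcrq) to 105 (Uqcrh). In complex IV it ran from 1.52 (Cox6a2) to 210 (Cox8a). Atp5s was lowest in complex V at 4.69, and Atp5a1 and Atp5b, which form the catalytic head of ATP synthase, were highest at 192 and 188. Exon lengths join all annotated transcripts of a gene, from 360 bases for Cox8b to 8086 for Ndufs1, so a gene with many long variants is set low on this scale.

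**Figure D1:**
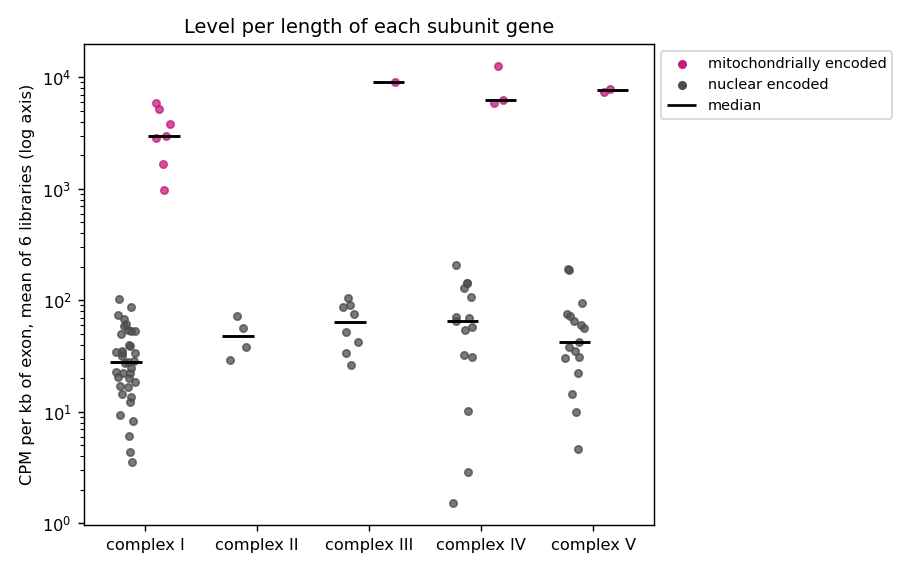
Level of each tested subunit gene by complex, in CPM per kb of exon (mean of 6 libraries, log axis), with mitochondrially encoded genes in magenta, nuclear ones in grey and medians as bars. The lowest mitochondrial gene, mt-Nd3 at 976, lies above the highest nuclear gene, Cox8a at 210.

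Depth and composition of the libraries touch the comparison of genotypes. Estimated counts summed to between 53525185 and 66694240 per library, so that 1 count was worth 0.0149 to 0.0186 CPM. Runx2 measured 79.7, 77.7 and 81.2 CPM in controls and 62.6, 54.0 and 49.0 CPM in cKO mice, lower in every cKO mouse. Its log2 fold change was -0.53, with an edgeR adjusted p = 0.0714 that ranged from 0.000128 (DESeq2) to 0.187 under other settings. Control 1 was the only male by Xist and Ddx3y. It was also the only library with much skeletal muscle RNA, with 15 of 15 markers highest there and a summed level of 521 CPM against 14.1 to 18.9 CPM in the others. The tissue is labelled dental mesenchyme, yet secretory ameloblast RNA was plentiful. Sums of 4 such genes were 60042 to 79541 CPM in controls and 22163 to 46682 CPM in cKO mice. The sums for 10 mesenchyme genes were 12414 to 20826 and 23865 to 41264 CPM. Most of this came from Col1a1 (8127 to 14617 and 16775 to 31831 CPM). As a mean log2 level relative to the control mean, these 10 genes overlapped between groups. Controls stood at 0.15, -0.055 and -0.095 and cKO mice at 0.11, 0.25 and 0.42. Some other marker lists were higher in every cKO mouse: 3 odontoblast genes (2777 to 4890 CPM in controls, 6309 to 12500 CPM in cKO mice), 6 macrophage genes (278 to 348 and 439 to 513 CPM) and 4 endothelial genes (342 to 368 and 420 to 443 CPM). In 5 maturation ameloblast genes control 2 (1798 CPM) stood with the cKO mice (1107 to 2624 CPM), apart from controls 1 and 3 (112 and 98.0 CPM). Marrow and blood RNA was higher in cKO 1 and cKO 2, while cKO 3 lay within the control range. Neutrophil and marrow genes (9) summed to 47.2, 22.1 and 2.63 CPM in cKO 1 to 3 against 1.999 to 3.16 CPM in controls. Erythroid genes (6) summed to 83.8, 115 and 31.8 CPM against 25.9 to 53.8 CPM. In such mixed tissue a change in the cells present and a change within cells cannot be told apart. The part of these differences in any result on the subunit genes was not tested, except by leaving out each library.

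No respiratory chain gene passed the threshold in the comparison of genotypes. Of the 96 genes 94 were tested after the filter on low counts, and 0 had an adjusted p under 0.05 by edgeR's quasi-likelihood test, against 0.026% (5 of 19264) of all tested genes. The lowest edgeR adjusted p among them was 0.145. With DESeq2 1 member passed, Cox6b2 in the higher direction, where 3.93% of all genes it assessed passed higher and 3.55% lower. Without adjustment, 7 members were higher and 3 lower at an edgeR p under 0.05, where 8.71% of all genes were called higher and 8.55% lower. This number of 10 fell when control 1, control 3, cKO 1 or cKO 2 was left out. Values for the other omissions, and the share of all tested genes under each omission, are not given here. Calls over all tested genes past the adjusted threshold also moved with the library left out. The drops therefore cannot be read as particular to the members. In 15 members every cKO value lay above every control value, and in 6 every cKO value lay below. Over all tested genes these shares were 11.1% and 12%.

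Most members stood slightly above 0 in fold change all the same. Of the 94, 74 had a log2 fold change (cKO minus control) above 0 and 20 below, where 50% of all tested genes were above 0, and the median was 0.057 against 4.8e-05 over all tested genes. All 13 mitochondrial genes were above 0 (median 0.14, range 0.09 to 0.27), and they remained so with each library left out in turn. Their median was 0.070 without control 1 and 0.23 without control 3. Of the 81 nuclear genes 61 were above 0 (median 0.05, range -0.39 to 0.59), and the number ran from 52 without cKO 1 (median 0.029) to 69 without cKO 3 (median 0.079). These genes share libraries, and the mitochondrial ones share transcripts as well, so neither count is a set of independent observations.

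The precision was high enough to bound the nuclear changes. Of 76 nuclear genes with a mean of at least 10 CPM, 74 had a 95% interval for the log2 fold change wholly within -0.5 and 0.5, a 1.41-fold change either way. The median half-width of the interval was 0.15 over the tested nuclear genes and 0.29 over the mitochondrial ones. Of the 13 mitochondrial genes 11 had an interval within the same bounds, and the highest upper bound was 0.54.

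**Figure D2:**
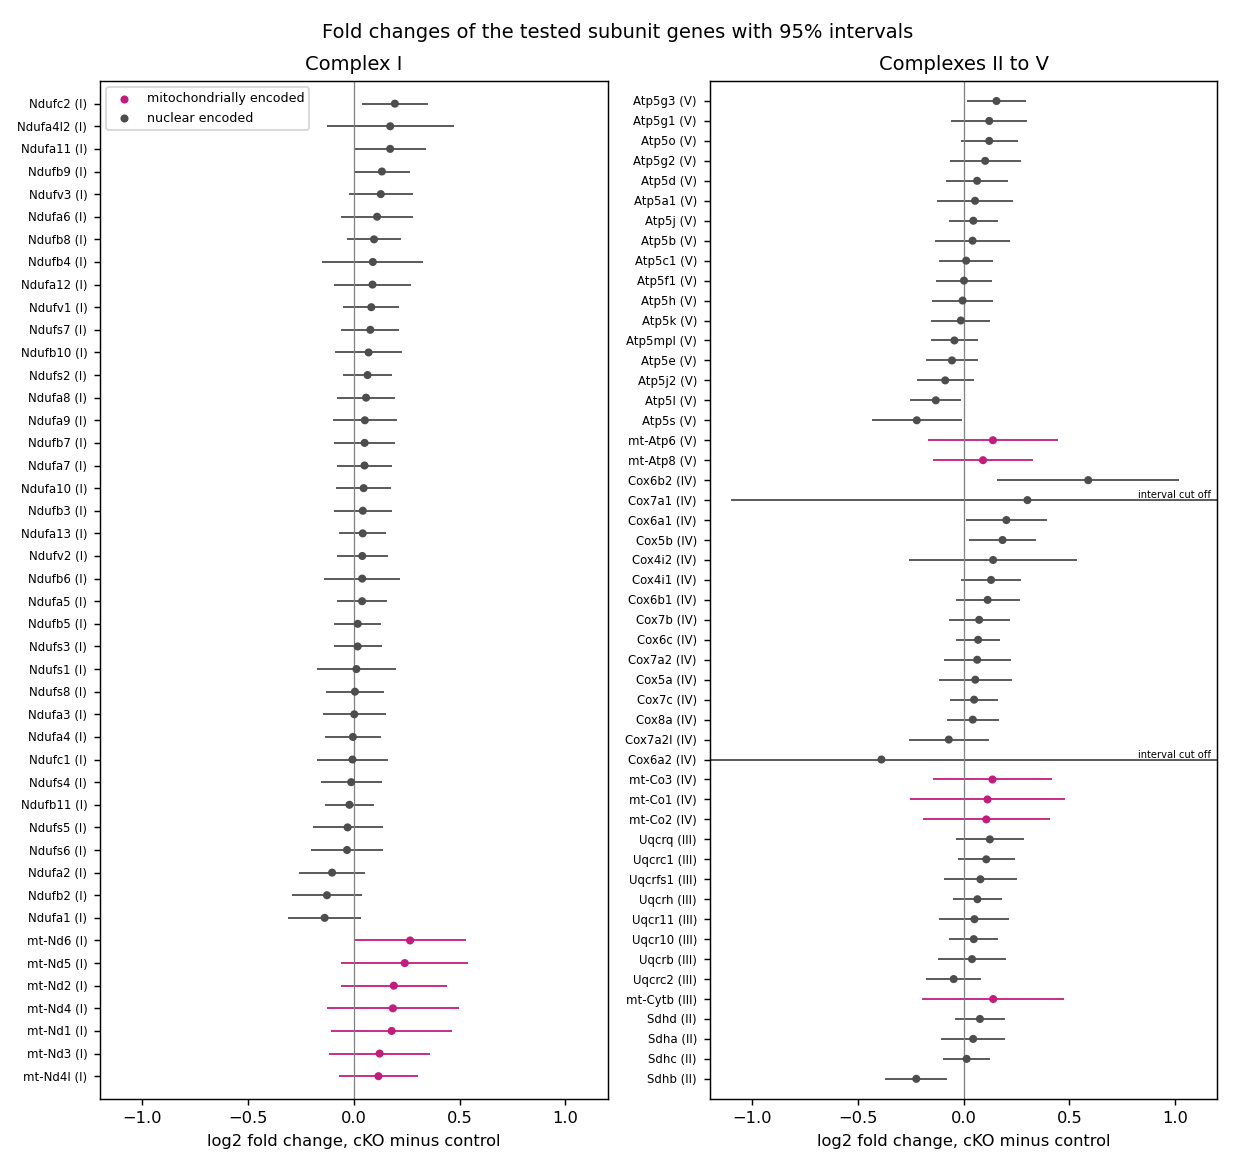
Log2 fold change (cKO minus control) of the 94 tested subunit genes with 95% intervals, complex I on the left and complexes II to V on the right, mitochondrially encoded genes in magenta. All 13 mitochondrial genes lie right of 0 with wider intervals than most nuclear genes, and 61 of 81 nuclear genes lie right of 0.

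The mitochondrially encoded genes took 5.88%, 6.81% and 7.25% of all counts in controls 1 to 3 and 7.30%, 7.51% and 7.42% in cKO 1 to 3. All cKO values were above all control values, but control 3 and cKO 1 were only narrowly separated. The mean difference was 0.762 percentage points (6.65% ± 0.697 against 7.41% ± 0.105, SD, n = 3 each). It was 0.381 points without control 1, the male library with muscle RNA, and 1.06 points without control 3. Adding 10 nuclear copies of mitochondrial genes gave 0.915 points, a sum that holds the same reads more than once if shared reads were counted in each gene. Over the same libraries the nuclear members took 0.678% to 0.741% of counts.

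The control mice differed among themselves more than the cKO mice did. As the mean log2 level of the 13 genes relative to the control mean, controls stood at -0.16, 0.02 and 0.14 and cKO mice at 0.15, 0.16 and 0.17. Control 3 was thus almost at the cKO level. Control 1 was the lowest library for all 13 genes, and control 3 the highest control for 11. The median coefficient of variation over these genes was 11.3% in controls and 3.56% in cKO mice. For the nuclear genes it was 3.22% and 5.07%, so the group with the wider spread was the other one.

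**Figure D3:**
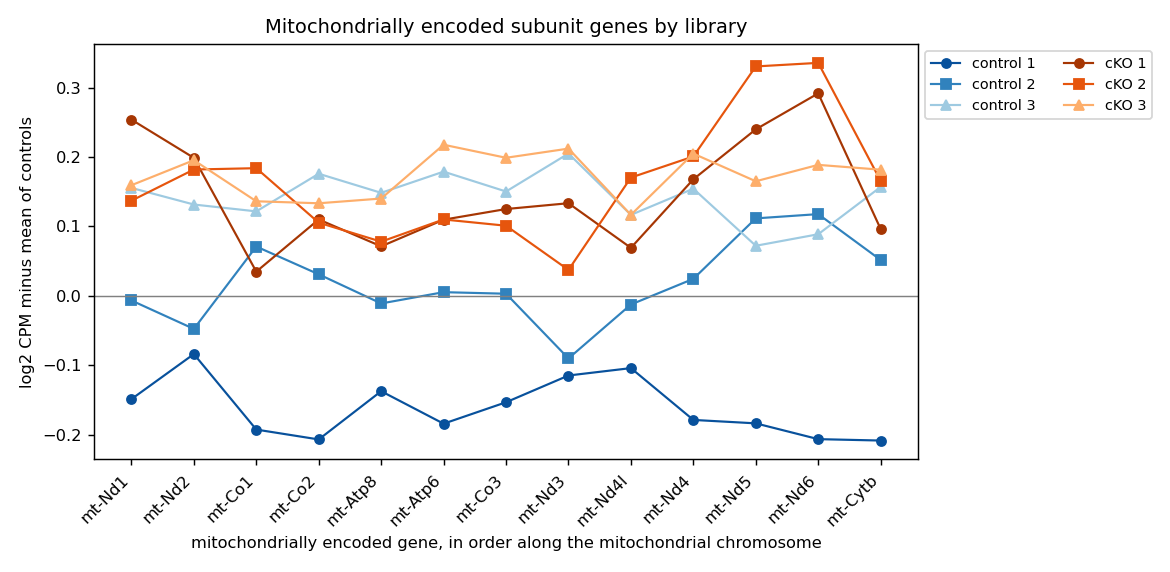
Log2 CPM of each mitochondrially encoded gene minus its control mean (y axis), genes in order along the mitochondrial chromosome (x axis), 1 line per library. Control 1 runs lowest throughout, control 3 lies among the cKO lines for most genes, and the cKO lines lie above all controls at mt-Nd2, mt-Nd4, mt-Nd5 and mt-Nd6.

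Within the mitochondrial genes, the 4 whose groups did not overlap all belong to complex I, where 11.1% of all tested genes lay wholly higher. Control 3 decided several overlaps. For mt-Nd1 it (5151 CPM) exceeded only cKO 2 (5086 CPM). For mt-Atp8 and mt-Co2 control 3 (1701 and 4615 CPM) exceeded every cKO mouse (at most 1691 and 4481 CPM). The mitochondrial genes of complex I, 7 in number, encode its membrane arm, through which protons pass. The gene mt-Nd6, the only one encoded on the strand opposite to the others, measured 1161, 1453 and 1424 CPM in controls and 1639, 1690 and 1526 CPM in cKO mice. All cKO values were above all controls, and the log2 fold change was 0.27 (SE 0.113, 95% interval -0.000255 to 0.53, edgeR adjusted p = 0.290, and 0.125 with DESeq2 to 0.483 over the alternatives). Its neighbour mt-Nd5 measured 4409, 5410 and 5265 CPM in controls and 5913, 6297 and 5615 CPM in cKO mice (a log2 fold change of 0.24, edgeR adjusted p = 0.386), again without overlap. The ratio of mt-Nd6 to mt-Nd5 counts was nearly constant, from 0.263 to 0.277 over the 6 libraries.

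Another pair of complex I genes had groups that did not overlap. The gene mt-Nd2 measured 3472, 3560 and 4030 CPM in controls and 4223, 4174 and 4213 CPM in cKO mice (a log2 fold change of 0.19, edgeR adjusted p = 0.417). The gene mt-Nd4 measured 6684, 7694 and 8419 CPM in controls and 8498, 8694 and 8719 CPM in cKO mice (0.18, edgeR adjusted p = 0.527). In both the highest control was control 3. For mt-Nd1, mt-Nd3 and mt-Nd4l the groups overlapped, with log2 fold changes of 0.18, 0.12 and 0.12.

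The 6 mitochondrial genes outside complex I had a median log2 fold change of 0.13, against 0.18 for complex I, and all 6 overlapped between groups. The difference between these medians was not tested. The gene mt-Co1 measured 16395, 19682 and 20386 CPM in controls and 19195, 21284 and 20592 CPM in cKO mice (a log2 fold change of 0.11, edgeR adjusted p = 0.757). The cKO 1 value lay below controls 2 and 3. The gene mt-Cytb measured 8445, 10113 and 10878 CPM in controls and 10431, 10945 and 11067 CPM in cKO mice (0.14, edgeR adjusted p = 0.665). The copper-binding subunit gene mt-Co2 and mt-Co3 stood at 0.11 and 0.14, and the ATP synthase genes mt-Atp6 and mt-Atp8 at 0.14 and 0.09. The share of mt-Co1 among all mitochondrial subunit counts was 28.2% ± 0.529 in controls and 27.5% ± 0.921 in cKO mice (SD, n = 3), which overlapped.

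Mitochondrially and nuclear encoded genes were then set against each other within each library. For the 76 nuclear genes of at least 10 CPM, the mean log2 level relative to the control mean was -0.012, 0.016 and -0.0036 in controls and 0.082, 0.075 and -0.014 in cKO mice. Thus cKO 3, which had the highest mitochondrial level, was at the control level for the nuclear genes. The mitochondrial minus the nuclear level was -0.15, 0.0034 and 0.15 in controls and 0.064, 0.089 and 0.19 in cKO mice. The groups overlapped in this difference, and its control SD of 0.15 was larger than the cKO mean of 0.11.

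**Figure D4:**
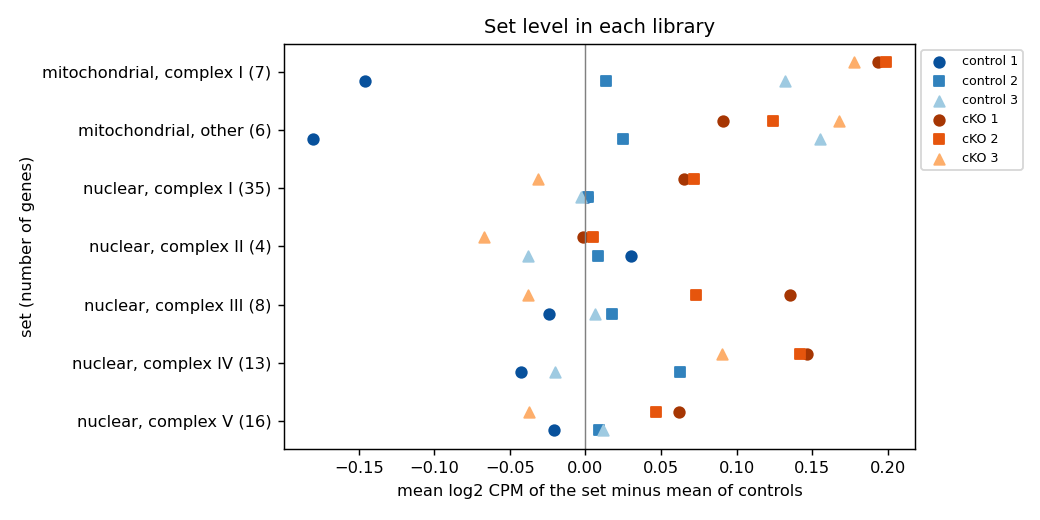
Mean log2 CPM of each set of subunit genes minus the mean of controls, 1 point per library (circles, squares and triangles for mice 1, 2 and 3, blue for control and orange for cKO). The mitochondrial sets spread widely among controls, and in each nuclear complex cKO 3 lies below the other cKO mice.

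Nuclear subunits of complex I, the NADH dehydrogenase and largest complex, were close to the control level. Of 37 genes 28 were above 0, with a median log2 fold change of 0.043 and a range from -0.14 to 0.19. The gene with the lowest p was Ndufc2, a membrane arm subunit (chromosome 7, 97400003 to 97407802, mm10), which measured 39.2, 37.1 and 39.4 CPM in controls and 47.5, 41.4 and 43.4 CPM in cKO mice. All cKO values were higher (log2 fold change 0.19, SE 0.067, edgeR adjusted p = 0.211). The membrane arm subunits Ndufa11 (0.17) and Ndufb9 (0.13) overlapped between groups and had edgeR adjusted p = 0.279 and 0.283. In the other direction stood Ndufa1, a small membrane arm subunit on the X chromosome, at 44.0, 44.3 and 47.7 CPM in controls and 43.8, 42.2 and 37.6 CPM in cKO mice (-0.14, edgeR adjusted p = 0.388).

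By module, the parts of complex I that handle electrons showed nothing past the threshold. The 10 genes of the N module, which binds NADH, had 7 above 0 (median 0.045), led in p by Ndufv3 (0.13) and Ndufa2 (-0.10). All 5 genes of the Q module, which passes electrons to ubiquinone, were above 0 (median 0.039, from 0.0053 for Ndufs8 to 0.078 for Ndufs7). In neither module did any gene have groups without overlap. Ndufab1, the acyl carrier subunit outside the symbol rule, measured 36.4, 32.4 and 37.1 CPM in controls and 38.8, 34.2 and 36.7 CPM in cKO mice (0.051).

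Complex II, succinate dehydrogenase, held the member of lowest p, and it pointed down. Sdhb, the iron-sulphur subunit (chromosome 4, 140961203 to 140979193), measured 96.6, 89.2 and 93.2 CPM in controls and 82.3, 82.4 and 74.2 CPM in cKO mice. Every cKO value was below every control value, yet the log2 fold change of -0.22 (SE 0.062, 95% interval -0.37 to -0.078) did not pass the threshold (edgeR adjusted p = 0.145, DESeq2 adjusted p = 0.0643). With other settings and with each library left out the log2 fold change stayed between -0.25 and -0.17, with adjusted p from 0.0643 (DESeq2) to 0.333.

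The partners of Sdhb in complex II did not share this direction. Sdha, the flavoprotein with the succinate site, measured 232, 245 and 216 CPM in controls and 236, 242 and 237 CPM in cKO mice (a log2 fold change of 0.046). Sdhc and Sdhd, the membrane anchors, stood at 0.015 and 0.078. For Sdhd, 87.3, 86.7 and 85.2 CPM in controls were all below the 94.97, 91.1 and 87.4 CPM of cKO mice, by a narrow margin. Sdha and Sdhd carry the NRF1 core shown above, and Sdhd carries the ETS core too. The promoter of Sdhb has an ETS core outside the 120 bases before its start, and no promoter was found for Sdhc. The difference between Sdhb and its partners was not tested.

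Complex III, which passes electrons from ubiquinone to cytochrome c, had 7 of 8 nuclear genes above 0 (median log2 fold change 0.059). Uqcrc1, a core subunit, measured 134.9, 136.5 and 134.5 CPM in controls and 153.7, 146.7 and 137.0 CPM in cKO mice, which did not overlap (0.11, edgeR adjusted p = 0.389). Its partner core subunit Uqcrc2 was the 1 gene below 0 (-0.046). Uqcrq (0.12) and Uqcrh (0.066) overlapped between groups. In this complex the cKO values followed 1 order in most genes, with cKO 1 highest and cKO 3 lowest. The set level was 0.14, 0.073 and -0.038 in cKO 1, 2 and 3. In nuclear complexes I and II cKO 2 was highest and cKO 3 lowest. The nuclear sets of complexes IV (0.15, 0.14 and 0.091) and V (0.062, 0.047 and -0.037) had the order of complex III. The neutrophil and marrow markers had the same order over these libraries. So did the maturation ameloblast markers (2624, 1445 and 1107 CPM) and the dental epithelium markers (2970, 2319 and 1843 CPM). The macrophage markers had the reverse order (439, 476 and 513 CPM). The erythroid markers (83.8, 115 and 31.8 CPM) had another order, as did the secretory ameloblast, mesenchyme, odontoblast, endothelial and skeletal muscle markers. The part of any of these lists in that order was not tested.

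Complex IV, cytochrome c oxidase, had the highest nuclear median over all 6 libraries, 0.074, with 13 of 15 tested genes above 0. It was also the nuclear set in which every cKO library stood above every control: 0.15, 0.14 and 0.091 against -0.042, 0.062 and -0.020 for its 13 genes of at least 10 CPM. No test of the set was made. The ubiquitous subunit Cox5b (chromosome 1, 36691449 to 36693681) measured 82.8, 83.7 and 88.4 CPM in controls and 104, 96.8 and 89.0 CPM in cKO mice, without overlap (log2 fold change 0.18, SE 0.068, edgeR adjusted p = 0.234). Cox6a1 measured 86.4, 102 and 90.7 CPM in controls and 116, 103 and 102.5 CPM in cKO mice (0.20, SE 0.081, edgeR adjusted p = 0.263). Here control 2 came close to the lowest cKO mouse. Cox4i1, a subunit through which the complex responds to ATP, measured 208, 227 and 207 CPM in controls and 237, 236 and 230 CPM in cKO mice (0.13, edgeR adjusted p = 0.325).

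The largest fold change among members of at least 10 CPM was that of Cox6b2 in complex IV. This gene encodes the testis-type form of a subunit on the cytochrome c side, for which Cox6b1 is the common form (Cox6b2, chromosome 7, 4751792 to 4753094). It measured 7.41, 11.7 and 7.97 CPM in controls and 14.9, 12.1 and 13.8 CPM in cKO mice. The groups did not overlap, but control 2 and cKO 2 were close. The log2 fold change was 0.59 (SE 0.183, 95% interval 0.16 to 1.02), a ratio of 1.50 that did not pass with edgeR (adjusted p = 0.179) and passed with DESeq2 (adjusted p = 0.0366). Leaving out libraries or changing the scaling gave 0.47 to 0.82, with edgeR adjusted p up to 0.409. Cox6b1 itself measured 88.0 ± 4.37 and 95.3 ± 5.65 CPM (SD, n = 3), with overlap (0.11). Per length, Cox6b2 made up 5.29%, 7.45% and 5.57% of the summed Cox6b1 and Cox6b2 level in controls and 8.63%, 7.48% and 8.99% in cKO mice.

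Other isoform pairs of complex IV showed which form the tissue used. Cox4i2, the form known from lung and from low oxygen, was present beside Cox4i1 at 27.3% ± 2.68 of their summed level per length in controls and 27.3% ± 4.88 in cKO mice (SD, n = 3). It measured 46.3, 39.6 and 37.1 CPM in controls and 34.2, 46.9 and 54.4 CPM in cKO mice, so the cKO mice spanned the controls (log2 fold change 0.14, SE 0.169). Cox7a2 and Cox8a, the common forms, stood at 0.065 and 0.044. Ndufa4l2, a relative of Ndufa4 known to be induced by low oxygen, measured 3.87, 4.83 and 4.78 CPM in controls and 5.03, 5.26 and 4.90 CPM in cKO mice. The groups did not overlap, though the lowest cKO mouse was close to the highest control (0.17, edgeR adjusted p = 0.542). Ndufa4 measured 91.7, 99.7 and 93.6 CPM in controls and 98.2, 95.6 and 90.4 CPM in cKO mice, which overlapped. Cox7b (0.074) and Cox7a2l (-0.070) overlapped between groups, and the copy of Cox7a2l described above varied between libraries by more than this difference.

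The heart and muscle forms Cox6a2, Cox7a1 and Cox8b were scarce, and single libraries set their values. Cox6a2 had 175, 10 and 9 counts in controls and 150, 16 and 10 in cKO mice, which is 3.26, 0.150 and 0.152 CPM and 2.24, 0.256 and 0.160 CPM. It was thus high in control 1 and in cKO 1 only, and its log2 fold change of -0.39 (95% interval -3.56 to 2.79) turned to 2.55 without control 1 and to -2.47 without cKO 1. Cox7a1 was also highest in those libraries, with 2.48, 1.14 and 0.574 CPM in controls and 2.96, 1.10 and 1.07 CPM in cKO mice. Cox8b, which failed the filter on low counts, had 74, 1 and 0 counts in controls and 2, 7 and 3 in cKO mice. The skeletal muscle markers were high beside all of these in control 1 but not in cKO 1, where they summed to 15.3 CPM. Cox6a2 shares 10.3% of its exonic bases with Itgad, which had 0 to 7 counts in any library. Cox7b2, known from testis, had 0 to 4 counts and was not tested, and Cox8c was not analysed here.

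**Figure D5:**
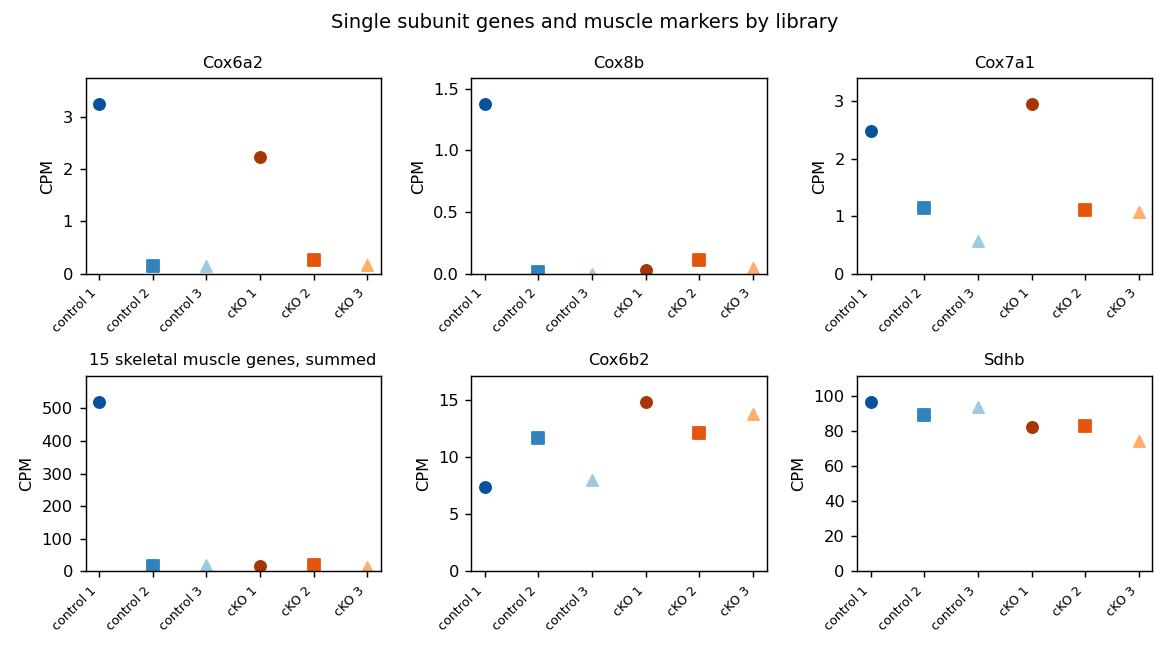
CPM in each library (y axis, from 0) of Cox6a2, Cox8b, Cox7a1, the sum of 15 skeletal muscle genes, Cox6b2 and Sdhb. Cox6a2 and Cox7a1 are high in control 1 and cKO 1, Cox8b and the muscle genes in control 1 alone, while Cox6b2 is higher and Sdhb lower in all cKO mice.

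Complex V, the ATP synthase, was split in direction. Of 17 nuclear genes 10 were above 0 and 7 below, with a median log2 fold change of 0.012. Atp5g3, which encodes the c subunit of the rotor ring, measured 134.4, 139.9 and 130.6 CPM in controls and 159.7, 146.7 and 144.8 CPM in cKO mice, without overlap (0.16, SE 0.060, edgeR adjusted p = 0.248). The other genes for the same protein, Atp5g1 and Atp5g2, stood at 0.12 and 0.10 with overlap. The membrane subunit Atp5l measured 64.1, 67.2 and 69.3 CPM in controls and 61.9, 59.5 and 61.8 CPM in cKO mice, all lower (-0.13, edgeR adjusted p = 0.253). A copy of it, Gm10221, held 50.8% to 68.4% of its counts.

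The remaining genes of complex V with separate groups were mostly lower. Atp5s measured 10.5, 9.97 and 10.4 CPM in controls and 9.16, 8.06 and 9.24 CPM in cKO mice (-0.22, SE 0.090, edgeR adjusted p = 0.273). Atp5j2 (-0.086) and Atp5mpl (-0.043), small membrane subunits, lay below with no overlap, and Atp5o (0.12), part of the stalk, lay above. The catalytic head genes Atp5a1 and Atp5b stood at 0.055 and 0.043. Both overlapped between groups.

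Members with and without the promoter cores had median fold changes that lay close together. The median log2 fold change was 0.070 for 17 genes with the NRF1 core and 0.046 for 47 without. It was 0.042 for 16 genes with the ETS core and 0.054 for 48 without. For the YY1 core it was 0.024 for 10 genes and 0.051 for 54 without. These values describe the members and were not tested.

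The other genes on which the chain depends were near the control level too. No gene of these lists passed with edgeR. Of 13 electron carrier and ubiquinone synthesis genes 9 were above 0 (median log2 fold change 0.044), led in p by Coq9 (0.13) and Etfdh (-0.099), with Cyc1 at 0.090 and Cycs, cytochrome c, at 0.045. Of 45 assembly factors 20 were above 0 (median -0.021), with Acad9 of complex I assembly at 0.16 and Cox20 of complex IV assembly at -0.25. The other 25 assembly factors were below 0. Of 16 citric acid cycle genes 11 were above 0 (median 0.051), led in p by Dlst (0.22).

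Genes that express the mitochondrial genome gave no common direction. Of 22 biogenesis and mitochondrial transcription genes 11 were above 0 (median -0.0019). The nuclear receptor Esrra measured 24.4, 23.6 and 23.3 CPM in controls and 32.4, 27.5 and 25.3 CPM in cKO mice (a log2 fold change of 0.26, edgeR adjusted p = 0.235), without overlap, and Slirp, which binds mitochondrial RNA, stood at -0.11. The coactivator Ppargc1a was at 0.090, Nrf1 at 0.048, Gabpa at 0.0084 and Tfam, which packs and transcribes mitochondrial DNA, at -0.085, all with overlap. Of 78 mitochondrial ribosome genes 38 were above 0 (median -0.0058), with Mrps14 (-0.22, edgeR adjusted p = 0.138) and Mrps33 (-0.20) lowest in p. The mitochondrial rRNA genes mt-Rnr2 and mt-Rnr1 stood at 0.14 and 0.096, and their set level was highest in cKO 1 (0.35 against -0.062 to 0.037 in the 5 other libraries). In the same library 102 cytosolic ribosome genes had a mean of -0.23, against -0.028 to 0.028 in the others.

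Among 5 uncoupling proteins and carriers, 1 gene stood out in size. Ucp3, an uncoupling protein known from muscle and brown fat, measured 3.00, 1.92 and 2.31 CPM in controls and 1.39, 1.44 and 0.849 CPM in cKO mice. Every cKO value was lower (log2 fold change -0.97, SE 0.262). It did not pass with edgeR (adjusted p = 0.138) and passed with DESeq2 (adjusted p = 0.0182). Other settings gave values up to 0.279. Slc25a3, the phosphate carrier that supplies ATP synthase, measured 239.4, 251.5 and 239.3 CPM in controls and 271.0, 265.4 and 264.7 CPM in cKO mice, all higher (0.13, edgeR adjusted p = 0.269).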

How the data were processed

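Reads were aligned with STAR 2.6.1d and handled in Partek on mm10, per the submitters' processing notes. Not given in the sources used here are the annotation, the counting settings, strand and the division of shared reads. The authors deposited an estimated count per gene and library, which need not be whole. The estimated counts were rounded. Genes were filtered with filterByExpr (minimum count 10, total 15), libraries were scaled by TMM, and edgeR 4.0.16 (R 4.3.3) was run as the quasi-likelihood F-test on 3 against 3 libraries, two-sided, with Benjamini-Hochberg adjustment over 19264 genes and a threshold of 0.05. DESeq2 1.42.0, other scalings, other filters and the omission of each library were alternatives. CPM use TMM-scaled totals. Intervals are 95% from the fit. Copies were sought with BLAST 2.17.0 (at least 95% identity over 75 bases, pseudogenes of GENCODE M21, which need not be the authors' annotation). On simulated counts for 18992 genes edgeR recovered 63.6% of genes changed by 1 and 91.7% of those changed by 2 on the log2 scale, with 12 false calls. Both sizes exceed every change estimated for a member, and the simulated libraries shared no differences in cell content. These rates therefore do not give the power to detect the changes of the members.

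The members and all lists were chosen with earlier results of these data known. Named genes are all mitochondrial members, tissue isoforms, complex II, the 3 of lowest p, the extreme fold changes and the extreme levels of each complex, any past a threshold, untested members and, of each other list, the 2 of lowest p, of which 1 gene is not reported here. Other genes were named after their values were seen. Libraries of the same group differed by more than counting noise (chi-square per degree of freedom 46.0 to 73.3). None was therefore treated as repeat sequencing of another. This measure does not speak to differences in cell content, and all 6 libraries were kept. Numbers were given in accession order.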

Additional observations from a re-analysis of the deposited data

How the results depend on the processing

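No paired analysis was made, because the protocol speaks of pairs without naming them. Every mouse has a number of its own in the labels, which does not tell which mice form a pair. The p-values therefore take no account of any pairing. The count of members past the threshold was 0 in every alternative except DESeq2, which called 1. For nuclear complex I the median log2 fold change of 0.043 became 0.049 with upper-quartile scaling and 0.051 with no filter, and ran from 0.030 to 0.074 with 1 library left out. The same ranges were 0.027 to 0.109 for complex III and -0.0022 to 0.049 for complex V. The range for complex IV is not given here, so its place as the highest nuclear median holds for all 6 libraries only. Complex II turned to -0.0038 without control 3. Of 514 values of 43 named members 13 changed sign. Ndufa4 (-0.0043) became 0.0022 with upper-quartile scaling, 0.0042 with no filter and 0.00083 with the filter of 1 CPM in 3 libraries. The other sign changes came from leaving out 1 library, which gave ranges of -0.028 (without cKO 1) to 0.031 (without control 2) for Ndufa4, -2.47 (without cKO 1) to 2.55 (without control 1) for Cox6a2, -0.35 (without cKO 1) to 0.996 (without control 1) for Cox7a1, -0.0013 (without control 3) to 0.090 (without control 2) for Sdha, -0.0063 (without control 3) to 0.040 (without control 1) for Sdhc, and -0.016 (without cKO 3) to 0.31 (without cKO 1) for Cox4i2. The cause was not tested. Over all tested genes the count past the threshold was 5, 1327 with DESeq2, 72 without control 2, 8 without cKO 3, 3 without control 3 and 0 without control 1, cKO 1 or cKO 2.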
